A study of Mus musculus with 6 samples.

Results

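Yap1, Wwtr1 (the gene for TAZ), the DNA-binding partners Tead1, Tead2, Tead3 and Tead4, and the YAP/TAZ target and feedback genes Ccn1, Ccn2, Ajuba and Amotl2 were followed in mouse lung cells of 2 ages. These 10 genes were chosen by name from 18193 genes on the array, with earlier results of these data known. Where a gene had several probe sets, the brightest on average gave its main value. The E18 group held 3 samples of cells positive for both Muc1 and Pdpn, sorted by flow cytometry from embryonic day 18 lungs and named bipotent progenitors in the series. The adult group held 3 samples of Lyz2+/EpCAM+ cells of adult lungs, which it calls ATII, the alveolar type II cells that secrete surfactant. The samples are labelled biological replicates, whereas strain, sex, exact adult age, pooling of animals and the way Lyz2+ cells were marked are not given in the sources used here. Age and sorted population differ together in this comparison and cannot be told apart. Each sample was measured once on an Affymetrix 3' expression array, so the number of arrays limits the precision.

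The Hippo pathway is a kinase cascade that restrains the coactivators YAP and TAZ. When the kinases are inactive, YAP and TAZ enter the nucleus, bind TEAD proteins and switch on genes such as Ccn1 and Ccn2, which encode secreted matrix-associated proteins. In lung epithelium YAP and TAZ are known for their part in branching, in type I cell fate and in repair after injury. Control acts largely through phosphorylation and location of the proteins, which transcript levels do not show.

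TEAD proteins bind DNA at the letters CATTCC, read as GGAATG on the opposite strand. The 250 bases before each annotated start in RefSeq's promoter table for GRCm38.p6 were searched for both spellings, and 7 of the 10 genes matched the table, with 10 starts between them. Ccn2, Tead1 and Tead4 had no window there and were not searched. Of the 7 genes with windows 6 held the letters before at least 1 start, the exception being Tead2. Over all genes listed there, 12.6% of 32851 windows held them, and 14.4% of 27025 genes did so in any window. The windows of Wwtr1 and Ajuba are shown because these genes passed the expression test below, and those of Ccn1 and Amotl2 because they are well-known YAP target and feedback genes. Capitals mark the motif letters, and each window is written 5′ to 3′ on the gene's strand, ending at the base before the start.
Wwtr1, before the first of its 2 starts, chr3:57575911-57576160, minus strand: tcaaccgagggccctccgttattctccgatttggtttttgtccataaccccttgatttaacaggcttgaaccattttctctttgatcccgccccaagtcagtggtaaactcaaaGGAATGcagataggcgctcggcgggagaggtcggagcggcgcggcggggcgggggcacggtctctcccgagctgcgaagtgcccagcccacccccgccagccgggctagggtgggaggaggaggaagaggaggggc
Ccn1, chr3:145649986-145650235, minus strand: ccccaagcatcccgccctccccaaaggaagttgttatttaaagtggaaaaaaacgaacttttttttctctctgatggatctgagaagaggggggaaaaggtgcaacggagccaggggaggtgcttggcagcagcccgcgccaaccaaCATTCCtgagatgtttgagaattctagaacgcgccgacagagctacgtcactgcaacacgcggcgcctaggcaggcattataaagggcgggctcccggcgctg
Ajuba, chr14:54577662-54577911, minus strand: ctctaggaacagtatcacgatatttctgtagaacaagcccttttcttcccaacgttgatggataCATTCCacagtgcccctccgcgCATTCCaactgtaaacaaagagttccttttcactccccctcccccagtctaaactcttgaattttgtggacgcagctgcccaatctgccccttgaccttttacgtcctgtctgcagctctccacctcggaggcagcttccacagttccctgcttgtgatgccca
Amotl2, chr9:102717554-102717803, plus strand: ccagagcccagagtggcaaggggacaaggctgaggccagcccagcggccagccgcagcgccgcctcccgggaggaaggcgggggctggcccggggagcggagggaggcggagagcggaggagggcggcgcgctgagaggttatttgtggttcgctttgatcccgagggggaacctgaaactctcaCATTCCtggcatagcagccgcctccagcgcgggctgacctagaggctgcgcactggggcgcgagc
The letters lay 103 to 98 bases before the start of Ccn1 and 65 to 60 bases before that of Amotl2. Ajuba held them at 2 places, 186 to 181 and 164 to 159 bases before its start, whereas 1.02% of all windows held 2 or more matches. Wwtr1 held 1 copy, which the windows of both its starts share because they overlap. Yap1 held 1 copy 141 to 136 bases before its start. Tead3 has 3 listed starts, of which the first window held 1 copy, the second 2 and the last none. A match of letters is a description and not a measured binding site.

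**Figure D1:**
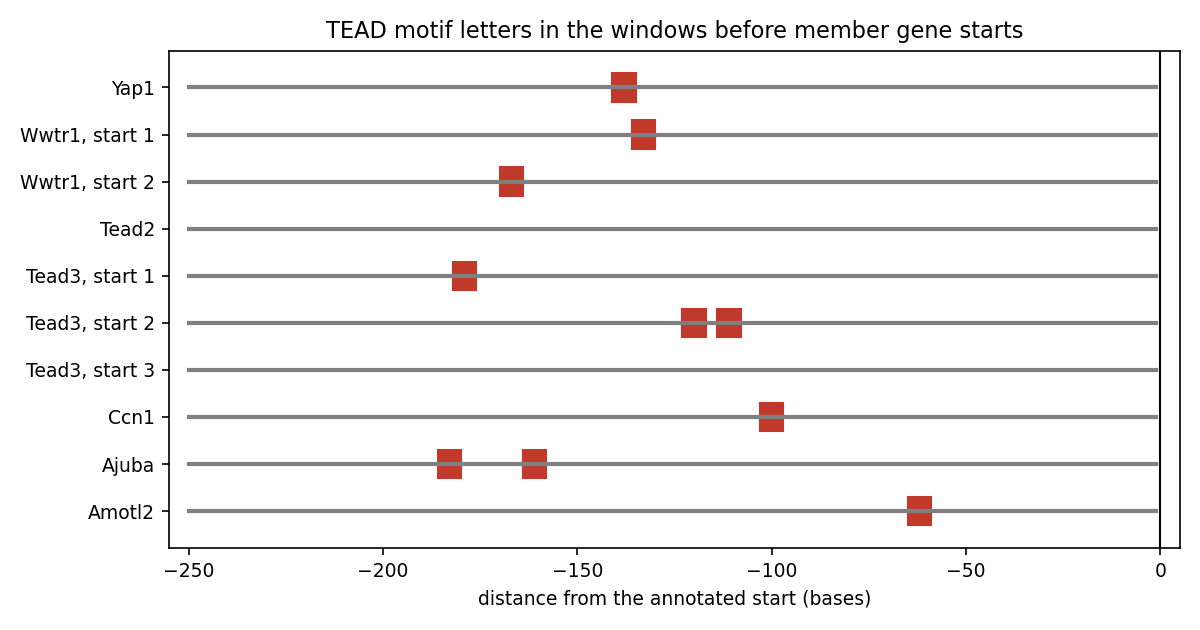
Position of the TEAD motif letters (red boxes, either strand) in the 250 bases before each of 10 annotated starts of 7 genes; the x axis is the distance from the start in bases and each grey line is 1 window. Tead2 and the last start of Tead3 have no box, and Ajuba and the second start of Tead3 have 2 each.

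Median probe set signal after the authors' scaling was 87.2 to 112 on the E18 arrays and 70.2 to 110 on the adult arrays. The arrays were not uniform in cell markers. Alveolar type II markers were bright in both groups, with Sftpc at 13.90 to 14.17 on the E18 arrays and 14.50 to 14.67 on the adult arrays (log2 signal). Of 9 general epithelial genes tested, all 9 were highest among adult arrays in adult replicate 3, and their summed signal over 10 genes was 3923, 4675 and 55100 in adult replicates 1, 2 and 3, against 26940 to 35540 on the E18 arrays. Leukocyte markers summed to 119200, 94640 and 45970 in adult replicates 1, 2 and 3, against 19390 to 35610 on the E18 arrays. Mesenchymal markers summed to 57370 to 83560 on the E18 arrays and 8232 to 20670 on the adult arrays. Epcam itself, the sorting marker, stood at 7.85, 8.50 and 10.68 in adult replicates 1, 2 and 3 and at 9.26 to 11.31 on the E18 arrays, so adult replicates 1 and 2 were low in the marker that their label names. The poly-A spike-in controls, added RNAs that do not come from the cells, had a median signal of 13740 and 20030 in the replicate 3 arrays of the 2 groups and of 43.04 to 282.1 on the other 4 arrays. Results are therefore also given for replicates 1 and 2 alone and for replicate 3, where 1 array faces 1 and no test exists. In RNA from many cells, fewer cells of a type and less RNA per cell cannot be told apart.

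All 9 genes that could be tested had a higher mean on the E18 arrays, by log2 differences (E18 minus adult) of 1.30 to 3.47. Wwtr1, Ajuba and Ccn2 passed the test and were 8.62-fold, 9.44-fold and 8.34-fold higher at E18. Yap1, Tead1, Tead2, Tead3, Ccn1 and Amotl2 did not pass, and Tead4 was under the detection floor on all 6 arrays and was not tested. The test was limma's moderated linear model over 13335 genes with Benjamini-Hochberg adjustment, and a gene passed at an adjusted p under 0.05. The detection floor was the 40th percentile of each array's probe sets, reached on at least 3 arrays by every tested gene.

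Thus 3 of 9 tested genes were higher at E18 and 0 were lower, where 5.98% of all genes tested were called in either direction, 4.57% higher and 1.41% lower. The median difference of the 9 was 3.06, against 0.17 over all genes tested. Groups did not overlap, with E18 above adult, for 7 of the 9 and with adult above E18 for 0, against 18.8% and 10.1% of all genes, or 28.9% in either direction. At an unadjusted p under 0.05, all 9 were higher at E18, against 15.1% of all genes and 21.6% in either direction. Because the genes were chosen with earlier results of these data known, these shares describe the list and are no test of it. With adult replicate 3 left out 8 of the 9 passed, Tead3 being the exception (adjusted p = 0.0604), and with replicates 1 and 2 alone 7 passed. Over all genes tested these 2 settings called 2711 of 12968 and 3107 of 13687. With E18 replicate 1 or E18 replicate 2 left out 0 passed, where 56 of 12866 and 59 of 12835 genes were called. With E18 replicate 3, adult replicate 1 or adult replicate 2 left out only Wwtr1 passed. Those 3 fits called 395 of 13002, 557 of 13025 and 221 of 13004 genes. In limma's fits that left out E18 replicate 1 or E18 replicate 2, 7 and 6 of the 9 had an unadjusted p under 0.05. Of all genes, 1513 of 12866 and 1538 of 12835 did so. The closest pair of arrays was E18 replicates 1 and 2, whose log2 signals correlated at 0.983, a Pearson's r over genes, which are not independent replicates. Averaging that pair into 1 sample left 0 of the 9 past limma's threshold and 7 at an unadjusted p under 0.05. Of all genes, 58 of 12829 were called in that fit.

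**Figure D2:**
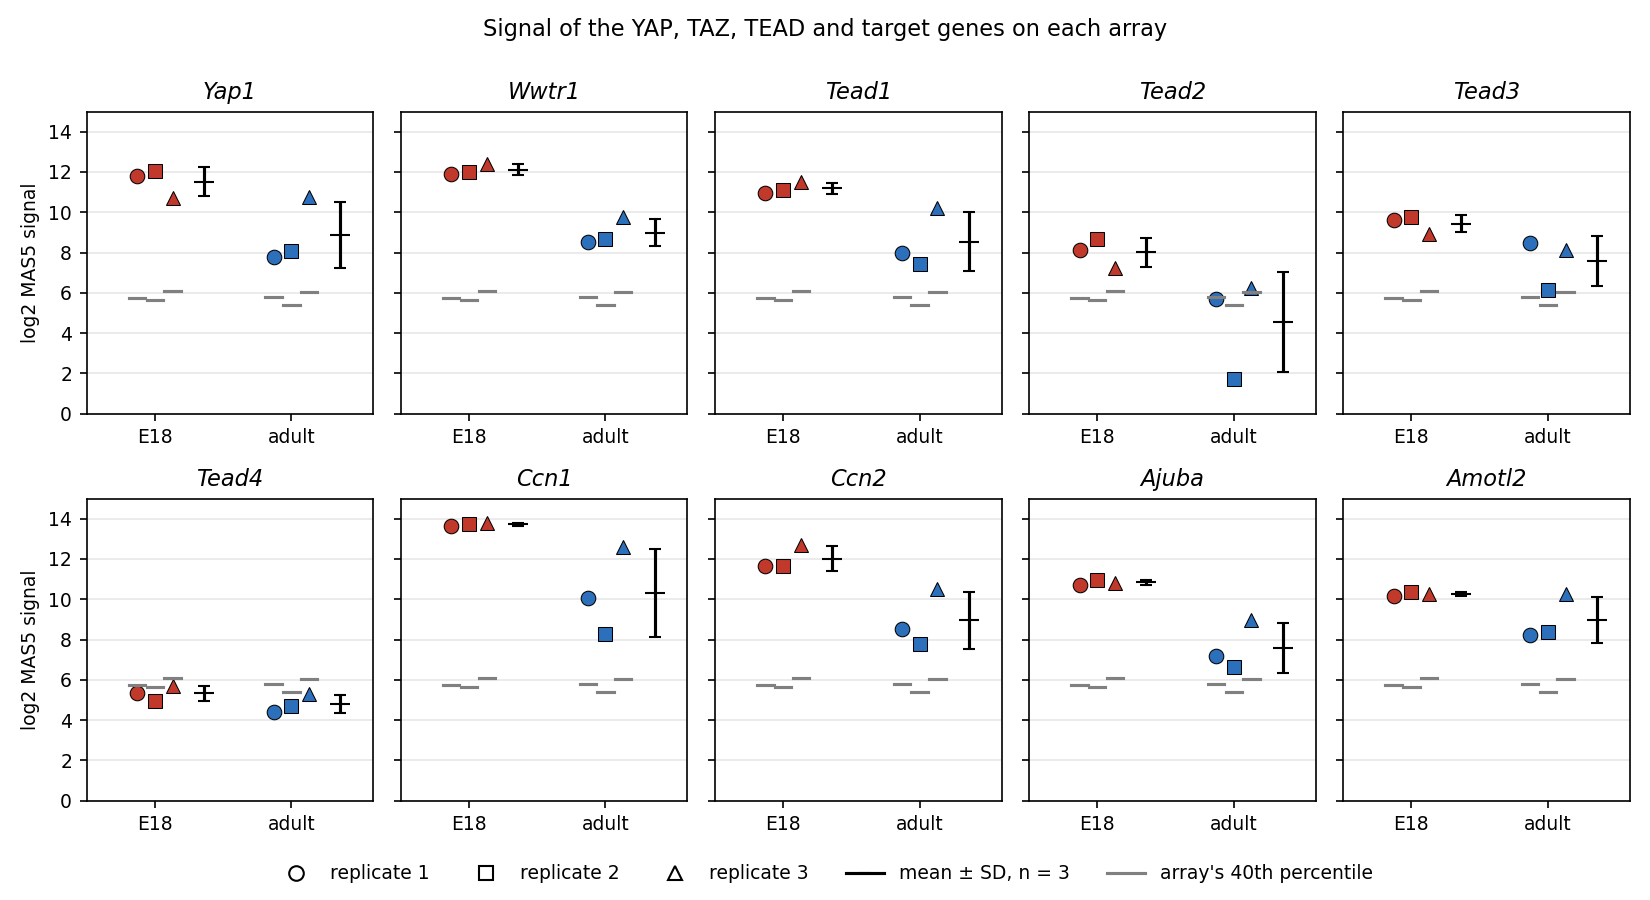
Log2 MAS5 signal of each gene on the 3 E18 arrays (red) and 3 adult arrays (blue); circles, squares and triangles are replicates 1, 2 and 3, black bars are the mean ± SD (n = 3) and grey ticks are each array's 40th percentile, the detection floor. Adult replicate 3 is the highest adult array for 9 of the 10 genes, the exception being Tead3, and reaches the range of the E18 arrays for Yap1, Tead4 and Amotl2.

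The coactivator genes Yap1 and Wwtr1 differed in how far the adult arrays spread. In log2 signal Wwtr1 stood at 11.88, 12.01 and 12.41 in E18 replicates 1, 2 and 3, whereas it stood at 8.50, 8.70 and 9.78 in adult replicates 1, 2 and 3. Every E18 array was above every adult array, and adult replicate 3 was the highest of its group. The means were 12.10 ± 0.27 and 8.99 ± 0.69 (SD, n = 3), so E18 exceeded adult by 3.11 log2 units (SE 0.40, adjusted p = 0.00917). Replicates 1 and 2 alone gave 3.35, and replicate 3 gave 2.63. The call was lost when E18 replicate 1 (adjusted p = 0.06) or E18 replicate 2 (adjusted p = 0.0638) was left out, and when the 3 probe sets of the gene were averaged (difference 2.54, adjusted p = 0.0941). The 2 other probe sets, dimmer and overlapping between the groups, differed by 2.45 and 2.06.

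Yap1 stood at 11.81, 12.02 and 10.70 in E18 replicates 1, 2 and 3 and at 7.77, 8.06 and 10.77 in the adult replicates. Adult replicates 1 and 2 lay far below all E18 arrays, whereas adult replicate 3 was as high as E18 replicate 3, so the groups overlapped. The means were 11.51 ± 0.71 and 8.87 ± 1.66 (SD, n = 3), and the log2 difference of 2.64 did not pass (SE 0.80, adjusted p = 0.106). Yap1 passed when only replicates 1 and 2 were used (4.0, adjusted p = 0.00491) and when adult replicate 3 alone was left out (3.59, adjusted p = 0.00305). In replicate 3 its difference was -0.07. The dimmer of the 2 Yap1 probe sets had a difference of 0.83.

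By a likeness of pattern, the root mean square difference in log2 signal after centring each gene over the 6 arrays, the nearest of 12717 genes to Yap1 were Nckap1 (0.176), Farp1 (0.23) and Zkscan8 (0.234). Nckap1 encodes a subunit of the WAVE complex that drives actin branching. None of these passed the test, with log2 differences of 2.55, 2.96 and 2.44 and adjusted p = 0.0842, 0.0614 and 0.0918.

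The TEAD proteins carry the DNA-binding domain, and of their genes Tead1, Tead2 and Tead3 had higher means at E18 but did not pass, while Tead4 was not tested. Tead1 stood at 10.96, 11.11 and 11.50 on the E18 arrays and 7.96, 7.45 and 10.22 on the adult arrays, in order of replicate. The groups did not overlap, and adult replicate 3 was again the highest adult array. Its log2 difference was 2.65 (11.19 ± 0.28 against 8.54 ± 1.47, SD, n = 3, SE 0.68, adjusted p = 0.0681). It passed with replicates 1 and 2 alone (3.33, adjusted p = 0.00512), without adult replicate 3 (3.48, adjusted p = 0.00166), with arrays centred on their medians (2.49, adjusted p = 0.0421) and with a block for the replicate 3 arrays (adjusted p = 0.0272), while in replicate 3 the difference was 1.29. A second, dimmer Tead1 probe set, under the floor on 2 arrays, differed by 0.35.

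Tead2 is known as the family member active in early development. It stood at 8.13, 8.66 and 7.25 on the E18 arrays and 5.69, 1.72 and 6.23 on the adult arrays, where replicates 1 and 2 were under the floor. The groups did not overlap, and the low value of adult replicate 2 widened the adult spread to an SD of 2.46. The log2 difference was 3.47 (SE 1.15, adjusted p = 0.135), and with low values raised to the floor it was 2.20 and passed (adjusted p = 0.0287). It also passed on the log2(signal + 32) scale (2.11, adjusted p = 0.0498) and without adult replicate 3 (4.31, adjusted p = 0.033). In replicates 1 and 2 alone it was 4.69 (adjusted p = 0.0638) and in replicate 3 it was 1.02. The gene reached the floor on its 3 E18 arrays and on adult replicate 3.

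Tead3 stood at 9.61, 9.74 and 8.93 on the E18 arrays and 8.46, 6.14 and 8.13 on the adult arrays. The groups did not overlap, though E18 replicate 3 and adult replicate 1 were close, and here adult replicate 1 was the highest adult array. The log2 difference was 1.85 (9.43 ± 0.43 against 7.58 ± 1.25, SD, n = 3, SE 0.63, adjusted p = 0.143), and Tead3 passed under none of the alternatives run. Replicates 1 and 2 alone gave 2.37, and replicate 3 gave 0.81. Tead4 stood at 4.95 to 5.68 on the E18 arrays and 4.42 to 5.28 on the adult arrays, under the floor throughout, and its other probe set was under the floor on 5 of 6 arrays, so no direction is given.

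The secreted matricellular targets were bright at E18. Ccn2, formerly connective tissue growth factor, stood at 11.63, 11.67 and 12.71 on the E18 arrays and at 8.54, 7.77 and 10.53 on the adult arrays. No adult array reached an E18 array, and replicate 3 was the highest in both groups. The log2 difference was 3.06 (12.01 ± 0.61 against 8.95 ± 1.42, SD, n = 3, SE 0.70, adjusted p = 0.0481), 3.50 in replicates 1 and 2 alone and 2.18 in replicate 3. The call lay close to the threshold. It was lost without any of E18 replicates 1, 2 or 3 or adult replicates 1 or 2 (adjusted p = 0.137 to 0.165), with no filter on low values (adjusted p = 0.0517), with the stricter filter (adjusted p = 0.0567), with probe sets averaged (adjusted p = 0.0508) and with a variance prior that had no intensity trend (adjusted p = 0.0608).

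Ccn1, formerly Cyr61, stood at 13.63, 13.73 and 13.80 on the E18 arrays and at 10.08, 8.26 and 12.61 on the adult arrays. The E18 arrays were nearly equal and the adult arrays widely spread, all below E18. The log2 difference was 3.40 (13.72 ± 0.08 against 10.32 ± 2.18, SD, n = 3, SE 0.95) and did not pass (adjusted p = 0.0855). It was 4.51 in replicates 1 and 2 alone (adjusted p = 0.012), 4.55 without adult replicate 3 (adjusted p = 0.00239) and 1.19 in replicate 3. All 4 Ccn1 probe sets had non-overlapping groups, with differences of 3.10 to 4.06.

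The genes with patterns nearest to that of Ccn2 were Ccn3, which encodes another matricellular protein of the same family (0.235), Tead1 (0.30) and Mal (0.312). Ccn3 stood at 9.47, 9.67 and 10.73 on the E18 arrays and 6.55, 6.24 and 8.23 on the adult arrays. It was 7.72-fold higher at E18 (adjusted p = 0.0338), and the call was lost without any of E18 replicates 1, 2 or 3 or adult replicates 1 or 2 (adjusted p = 0.106 to 0.147).

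Ajuba and Amotl2 encode junction-associated proteins that act back on the Hippo kinases and on YAP. Ajuba, a LIM protein that binds and holds the LATS kinases, stood at 10.71, 10.98 and 10.81 on the E18 arrays and 7.16, 6.62 and 8.99 on the adult arrays. All E18 arrays were above all adult arrays. The log2 difference was 3.24 (10.83 ± 0.13 against 7.59 ± 1.24, SD, n = 3, SE 0.59, adjusted p = 0.0238), 3.95 in replicates 1 and 2 alone and 1.82 in replicate 3. The call was lost without any of E18 replicates 1, 2 or 3 or adult replicates 1 or 2 (adjusted p = 0.0777 to 0.135).

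Amotl2, an angiomotin that holds YAP at cell junctions, stood at 10.16, 10.33 and 10.26 on the E18 arrays and 8.22, 8.38 and 10.26 on the adult arrays. Adult replicate 3 equalled the E18 arrays, while adult replicates 1 and 2 were lower. The log2 difference of 1.30 did not pass (10.25 ± 0.09 against 8.95 ± 1.13, SD, n = 3, SE 0.55, adjusted p = 0.224). It passed in replicates 1 and 2 alone (1.95, adjusted p = 0.0098) and without adult replicate 3 (1.95, adjusted p = 0.00477). In replicate 3 its difference was -0.003.

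The adult arrays differed among themselves in these genes. Among the 9 tested genes adult replicate 3 was the highest adult array for 8, against 46.2% of all genes tested, and its excess over the mean of adult replicates 1 and 2 had a median of 2.38 log2 units, against 0.24 over all genes. That excess was 3.44 for Ccn1, 2.86 for Yap1 and 1.18 for Wwtr1. General epithelial genes had a median excess of 3.69 and airway epithelial genes one of 2.74 on the same array, whereas the medians of mesenchymal, endothelial and leukocyte genes were -1.45, -1.76 and -1.87. In adult replicates 1 and 2 all 9 genes were below every E18 array, as were 35.7% of all genes. In adult replicate 3 it was 7 of 9, with 36.2% of all genes. The median difference within the 9 genes was 3.09 between replicates 1, 3.90 between replicates 2 and 1.19 between replicates 3.

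**Figure D3:**
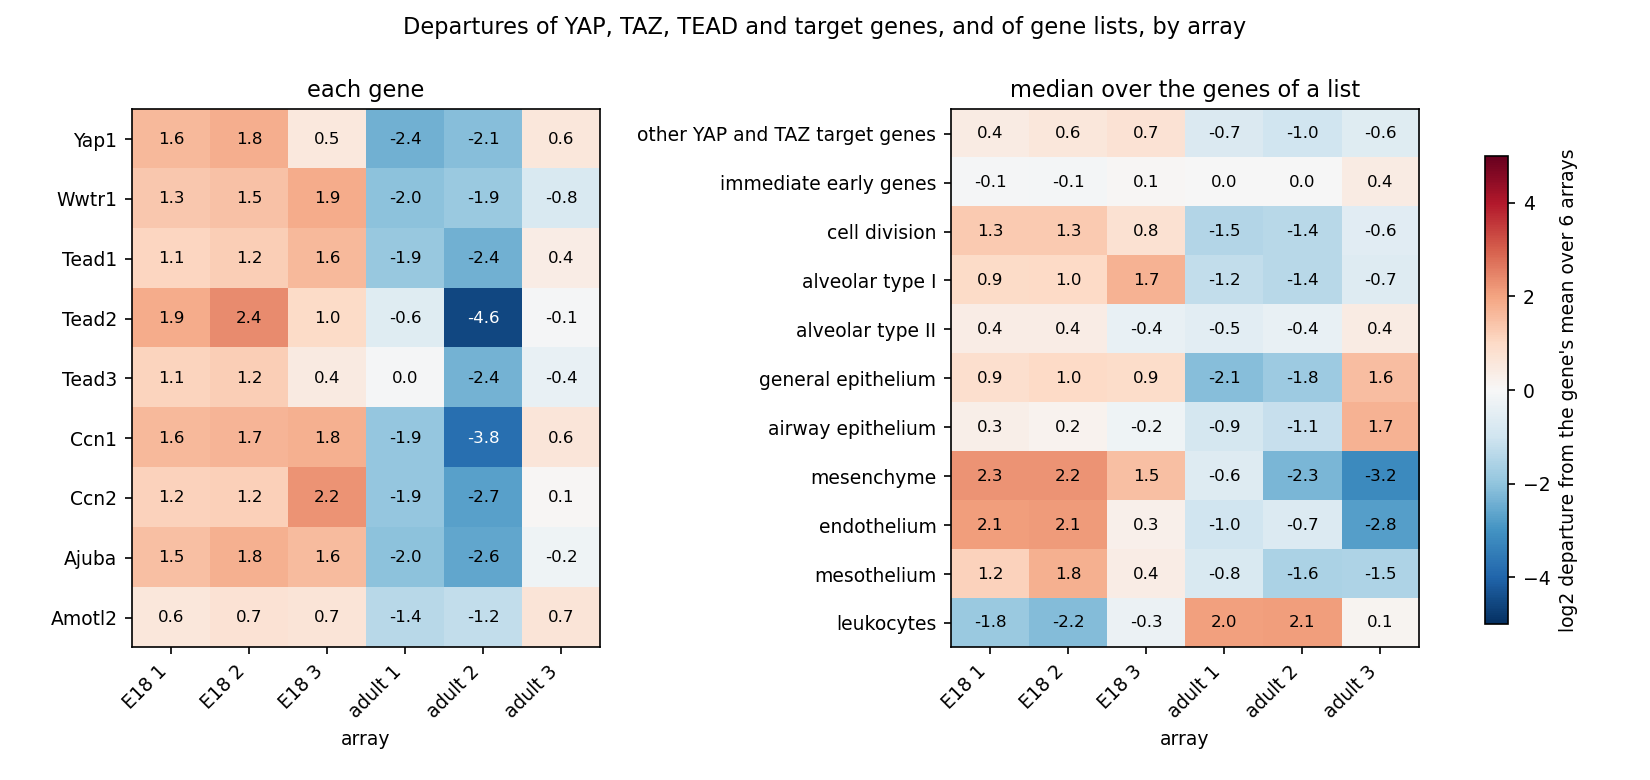
Departure of log2 signal from each gene's mean over the 6 arrays, for the 9 tested genes (left) and as the median over the genes of each list on the array (right); columns are the arrays and red is above the mean. In adult replicate 3, Yap1, Tead1, Ccn1, Ccn2 and Amotl2 are above their means, as are the medians of the general epithelial, airway and type II lists, whereas that of the type I list is below and those of the mesenchymal and endothelial lists are at their lowest.

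Markers of several cell types also differed between the groups, and some of them mark the sorted populations themselves. Over all genes tested 4.57% were called higher at E18 and 1.41% lower, and 21.6% had an unadjusted p under 0.05. Of 12 mesenchymal genes tested 10 were higher at E18 and 0 lower, with a median difference of 3.86. Of 12 endothelial genes 3 were higher, with a median of 3.15 and summed signals of 7928 to 29240 on the E18 arrays against 3709 to 4457 on the adult arrays. Of 8 mesothelial genes 3 were higher, with a median of 2.25 and summed signals of 7315 to 11000 against 799.2 to 1853. Of 12 type I cell genes 6 were higher, with a median of 2.37 and summed signals of 68390 to 91550 against 15340 to 24290. Among these 6 was Pdpn (limma adjusted p = 0.00924), on which the E18 cells were sorted, so its call is no independent observation. Of 9 general epithelial genes 0 passed in limma, 2 had an unadjusted p under 0.05 and the median was 1.69. Of 9 type II cell genes 0 passed, 1 was higher and 0 lower at an unadjusted p under 0.05, and the median was 0.05, while of 6 airway genes 1 was higher at E18 and 0 lower. Of these 6, 1 was higher and 2 lower at an unadjusted p under 0.05, and the median was -0.067. Of 12 leukocyte genes 3 were lower at E18 and 0 higher, with a median of -3.53. No mesenchymal gene was under the floor on all arrays of a group. Tie1, Wt1 and Krt15, markers of endothelium, mesothelium and airway, were under it on all 3 adult arrays. Each is among the calls counted here, and Krt15 is the 1 airway call. They reached the filter through their 3 E18 arrays alone, so they had to differ to be tested. Ccn1, Ccn2, Yap1, Wwtr1 and the TEADs are also expressed in mesenchymal and endothelial cells, and the part of these cell types in the differences was not tested.

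Immediate early genes, which can rise when tissue is taken apart and of which Ccn1 is often counted one, were bright in both groups. Of 18 such genes 0 passed in limma in either direction, 0 were higher and 1 lower at E18 at an unadjusted p under 0.05, and the median difference was -0.02. Of all genes tested 5.98% passed in either direction and 21.6% had an unadjusted p under 0.05. Groups did not overlap for 4 of the 18 with adult above E18 and for 0 with E18 above adult, against 10.1% and 18.8% of all genes. Adult replicate 3 was the highest adult array for 11 of the 18, against 46.2% of all genes, with a median excess of 0.41 against 0.24. Egr1 was 14.39 ± 0.01 against 14.23 ± 0.46 and Fos 14.08 ± 0.15 against 14.42 ± 0.24 (E18 against adult, mean log2 signal ± SD, n = 3), and neither passed (adjusted p = 0.792 and 0.496). Their differences of 0.16 and -0.34 changed sign without adult replicate 2 for Egr1 (-0.10) and after quantile normalization for Fos (0.26). The summed signal of the 18 genes was 167000 to 169000 on the E18 arrays and 173700 to 215900 on the adult arrays.

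YAP activity is known to favour cell division, and a link between them was not tested here. Cell division genes were higher at E18. All 9 tested passed, with a median log2 difference of 2.45, where 4.57% of all genes tested were called higher. The mitotic checkpoint kinase gene Bub1 rose by 3.18 (SE 0.49, adjusted p = 0.0142), the mitotic kinase gene Plk1 by 2.84 (adjusted p = 0.0213), Cdk1, the kinase that starts mitosis, by 2.60 (adjusted p = 0.0126), Aurkb by 2.47 (adjusted p = 0.0159) and the kinetochore motor gene Cenpe by 2.45 (adjusted p = 0.0496). Each of these 5 calls was lost in 3 to 5 of the 6 fits that left out 1 array, which included those without E18 replicate 1, E18 replicate 2 and adult replicate 2 for all 5 (adjusted p = 0.055 to 0.224).

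Upstream of YAP and TAZ act the Hippo kinases and their adaptors. Of 14 tested genes 1 was higher at E18, 0 were lower and 13 did not pass, with a median difference of 0.23. Of all genes tested 4.57% were called higher and 1.41% lower. Groups did not overlap for 4 of the 14 with E18 above adult and for 2 with adult above E18, against 18.8% and 10.1% of all genes. Wwc2, a relative of the scaffold KIBRA that activates the LATS kinases, stood at 10.84, 11.04 and 11.01 on the E18 arrays and 9.55, 9.08 and 9.90 on the adult arrays. It was 2.73-fold higher at E18 (log2 difference 1.45, SE 0.31, adjusted p = 0.0395), and its call was lost in 11 of 18 alternatives. Among genes that did not pass, Stk4, which encodes the kinase MST1, was 12.20 ± 0.18 against 13.25 ± 0.96 (adjusted p = 0.249), and the LATS cofactor gene Mob1a was 12.11 ± 0.19 against 12.46 ± 0.21 (adjusted p = 0.491). Stk4 passed in 2 of 18 alternatives, among them replicates 1 and 2 alone, where it was lower at E18 (log2 difference -1.65, limma adjusted p = 0.0411). The LATS kinase genes, named after their values were seen, did not pass, with Lats1 at 10.53 ± 0.02 against 10.02 ± 0.09 (adjusted p = 0.307) and Lats2 at 11.88 ± 0.17 against 12.60 ± 1.28 (adjusted p = 0.528, E18 against adult, mean log2 signal ± SD, n = 3). Lats2, itself a YAP target, was 13.90, 12.56 and 11.35 in adult replicates 1, 2 and 3.

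Junction, polarity and cadherin proteins feed into the kinases or hold YAP outside the nucleus. Of 15 tested 3 were higher, 0 lower and 12 did not pass, with a median difference of 1.04, and 10 did not overlap with E18 above adult. Of all genes tested 4.57% were called higher, 1.41% lower, and 18.8% did not overlap with E18 above adult. Fat4, a giant cadherin that acts as a receptor, stood at 10.26, 10.35 and 9.0 on the E18 arrays and 7.20, 4.57 and 4.93 on the adult arrays, with adult replicates 2 and 3 under the floor. Its excess at E18 was 4.30 log2 units (SE 0.75, adjusted p = 0.0212). Dchs1, the cadherin ligand of Fat4, was under the floor on all 3 adult arrays and at least 2.62-fold higher at E18 (7.14 ± 0.24 against 4.51 ± 0.98, mean log2 signal ± SD, n = 3, adjusted p = 0.049). Tjp1, the tight junction scaffold ZO-1, was 12.71, 12.70 and 12.36 on the E18 arrays and 8.72, 8.39 and 11.25 on the adult arrays, with adult replicate 3 highest of its group, and was 8.81-fold higher (adjusted p = 0.0463). Fat4 was lost as a call without E18 replicate 1, E18 replicate 2 or adult replicate 2 (adjusted p = 0.0826 to 0.124), Tjp1 without any array but adult replicate 3 (adjusted p = 0.112 to 0.191), and Dchs1 without adult replicate 1 or adult replicate 2 (adjusted p = 0.107 and 0.142) and with no filter on low values (adjusted p = 0.0563). Dchs1 reached the filter through its 3 E18 arrays alone, so it had to differ to be tested, and it was not tested when an E18 array was left out.

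Vestigial-like proteins compete with YAP and TAZ for TEADs. Of 3 tested genes 1 was called higher at E18, where 4.57% of all genes tested were. That gene was Vgll3, which stood at 8.49, 8.09 and 7.27 on the E18 arrays and under the floor on all 3 adult arrays, at least 4.58-fold higher (adjusted p = 0.0288). Without adult replicate 2 it did not pass (adjusted p = 0.0793). It reached the filter through its 3 E18 arrays alone, was not tested when an E18 array was left out, and with no filter on low values had an adjusted p = 0.0332. Vgll4, the family member that represses TEAD targets, was 9.96 ± 0.12 against 10.29 ± 0.38 (adjusted p = 0.582), and Vgll2 was 6.23 ± 0.26 against 5.64 ± 1.48 (adjusted p = 0.704, E18 against adult, mean log2 signal ± SD, n = 3). Vgll1 was under the floor on all E18 arrays and was not tested.

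The list of other known YAP and TAZ target genes shares Lats2 with the kinases and Ptpn14 with the junction regulators. Of its 18 tested genes 4 were higher at E18, 0 lower and 14 did not pass, with a median log2 difference of 1.37, and 9 did not overlap with E18 above adult. Of all genes tested 4.57% were called higher and 18.8% did not overlap in that direction. Igfbp3, a secreted binding protein for insulin-like growth factors, was 9.45, 9.13 and 8.64 on the E18 arrays and under the floor on all 3 adult arrays, at least 9.99-fold higher (adjusted p = 0.00895). Tgfb2, a TGF-beta ligand, stood at 11.47, 11.87 and 10.84 on the E18 arrays and 8.22, 7.59 and 7.17 on the adult arrays, a 13.3-fold difference (log2 difference 3.73, SE 0.41, adjusted p = 0.00583). Ccdc80, a matrix protein, was 7.14-fold higher (adjusted p = 0.0061) and Rbms3, an RNA-binding protein, 5.32-fold higher (adjusted p = 0.0314). Tgfb2 passed in all 18 alternatives run. Igfbp3 reached the filter through its 3 E18 arrays alone and was not tested when an E18 array was left out, so its passes are no sign of stability against those arrays, and with no filter on low values it had an adjusted p = 0.00946. Ccdc80 was lost without E18 replicate 1 (adjusted p = 0.0593) or E18 replicate 2 (adjusted p = 0.0591), and Rbms3 without any of the E18 replicates 1, 2 or 3 (adjusted p = 0.0832 to 0.166). For Tgfb2 and Ccdc80 adult replicate 3 was the lowest adult array, unlike for Ccn1, Ccn2, Ajuba and Amotl2, where it was the highest. The summed mesenchymal signal was also lowest, 8232, in adult replicate 3, and its part in these differences was not tested.

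**Figure D4:**
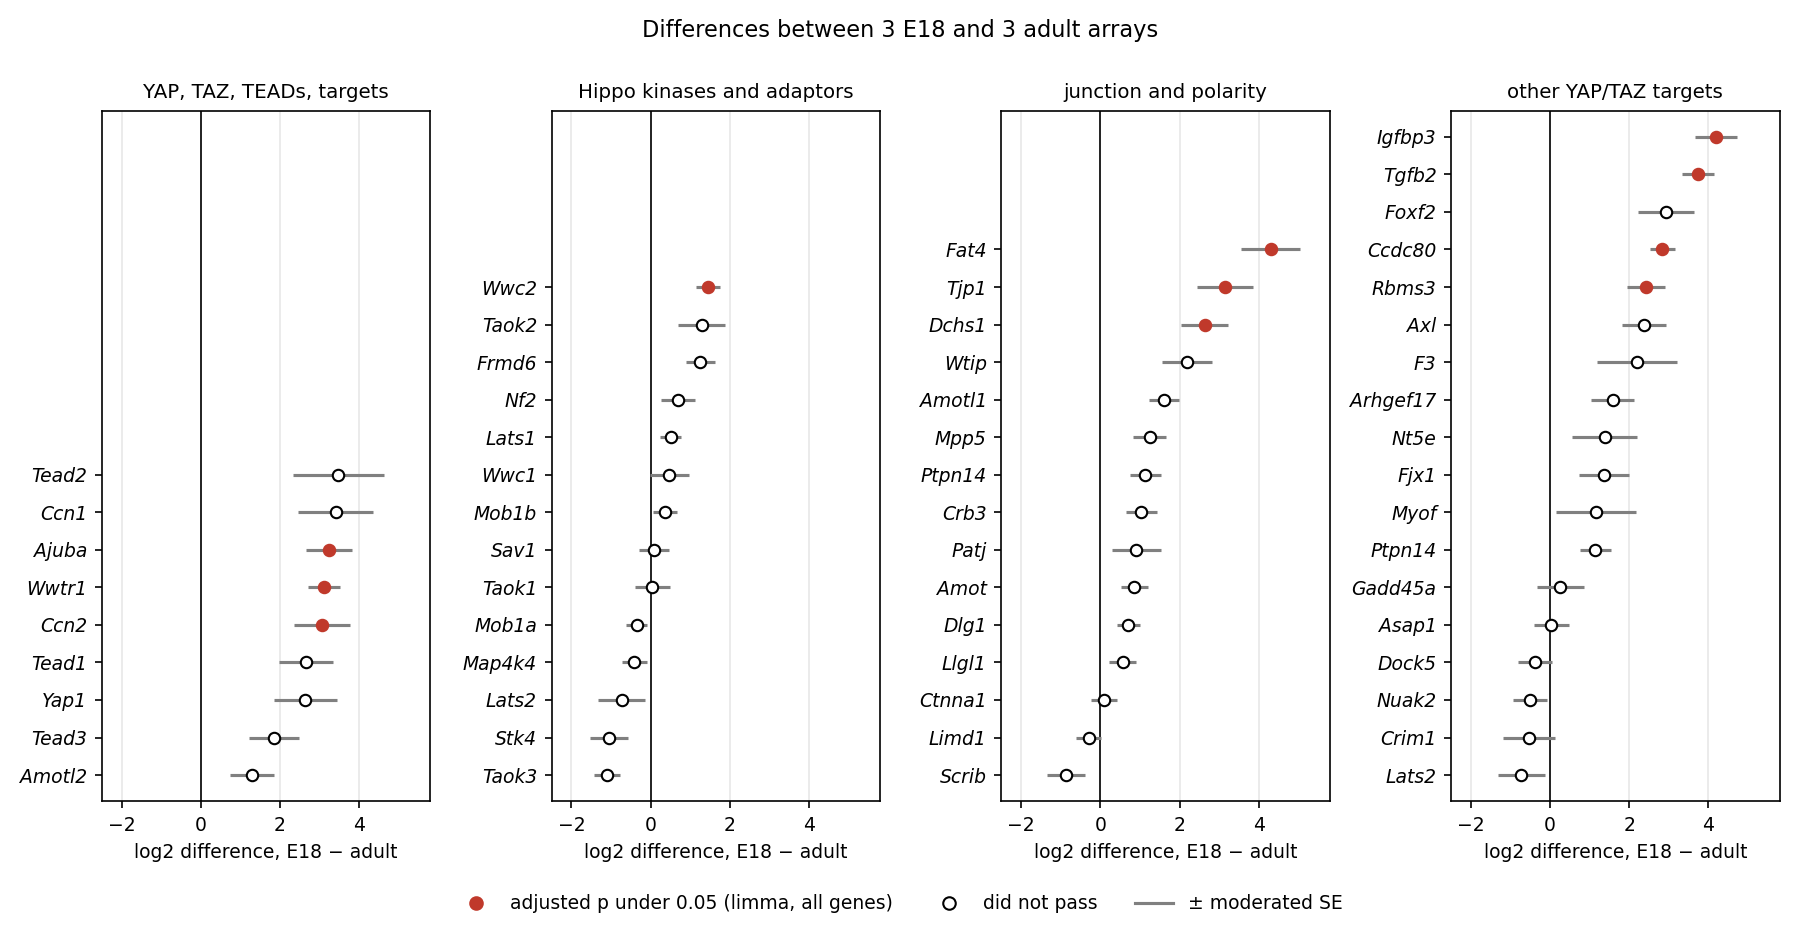
Log2 difference in signal, E18 minus adult, with its moderated SE, for the tested genes of 4 groups; filled red points passed at an adjusted p under 0.05 in limma over 13335 genes and open points did not. The 9 genes of the first panel lie between 1.30 and 3.47, whereas the Hippo kinases and adaptors lie on both sides of 0, between -1.10 and 1.45.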

How the data were processed

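Per the labels' protocols, total RNA was amplified in 2 rounds, biotin-labelled and hybridized, 1 array per sample. The deposited values are linear signal intensity per probe set, for which the submitters' processing notes name MAS5 and Affymetrix Expression Console. They were taken to log2 with no pseudocount or further normalization. Of 45101 probe sets, 34945 had 1 gene symbol in the platform annotation, 932 several, 64 were controls and 9160 were unnamed, and 0 symbols changed when matched by gene ID to RefSeq (GRCm38.p6). Of 18193 genes 13335 passed the filter and were tested with limma 3.58.1 in R 4.3.3 with an intensity trend, two-sided. In simulated data with the means and spreads of these 13335 genes, 50 genes each were changed by 1, 2, 4 and 6 log2 units. Of those changed by 2 log2 units 30% were called and of those changed by 4, 74%, with 6 false among 103 calls. The adjusted cut loosens as calls grow, and the measured data gave 798, so these shares are not the power of this comparison. The median residual SD was 0.533.

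The genes studied and the gene lists were chosen with earlier results of these data known, so no list was tested as a set. The other pathway genes named were up to 5 per list that passed, by size of difference, or the brightest up to 2 where fewer than 2 passed. The nearest 3 genes to Yap1 and to Ccn2 were taken without predicted clones. Of listed genes Stk3, Ccnb1, Lamp3 and Ccdc78 had no probe set of their own in the annotation and were not analysed here. Alternatives covered scaling, filter, probe set choice, pseudocount, floor, blocks, variance prior and each array left out. Levels were not compared between probe sets of different genes.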

Additional observations from a re-analysis of the deposited data

How the results depend on the processing

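No difference of the 9 tested genes changed sign in the 18 alternatives run (17 for Tead2), and their lowest and highest values were 0.93 for Amotl2 and 4.69 for Tead2. None of these alternatives used replicate 3 alone, where the difference was -0.07 for Yap1 and -0.003 for Amotl2. Where a call changed, the cause was not tested. The count of all genes called, 798, was 266 with the stricter filter (50th percentile on all 6 arrays), 492 with the replicate block, 3107 in replicates 1 and 2 alone, 58 with E18 replicates 1 and 2 averaged, an alternative chosen after seeing the data, and 56 to 2711 when 1 array was left out. The count for the 9 genes, 3, was 1 with probe sets averaged, 7 in replicates 1 and 2 alone, 0 with E18 replicates 1 and 2 averaged (limma, 7 at an unadjusted p under 0.05) and 0 to 8 when 1 array was left out. The replicate block left it at 3, and the pairing check gave correlations of 0.0364, -0.14 and -0.0579 between same-numbered arrays' deviations from their group means, so the numbers were not taken as pairs.

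For Hippo kinases and adaptors the count of 1 was 0 with centred arrays, the stricter filter and averaged probe sets. It was also 0 with the replicate block, a prior without trend and E18 replicates 1 and 2 averaged. It was 3 in replicates 1 and 2 alone (2 higher at E18 and 1 lower, Stk4) and 0 to 3 when 1 array was left out. For junction and polarity regulators the count of 3 was 0 with the stricter filter and with E18 replicates 1 and 2 averaged, and 1 with the replicate block. It was 9 in replicates 1 and 2 alone (8 higher at E18 and 1 lower) and 0 to 8 when 1 array was left out. For Vestigial-like genes the count of 1 was 2 with no filter (1 higher at E18, Vgll3, and 1 lower, Vgll1), 0 with the stricter filter, the replicate block and E18 replicates 1 and 2 averaged, and 0 to 1 when 1 array was left out. For other targets the count of 4 was 7 with a block for the replicate 3 arrays, 9 in replicates 1 and 2 alone, 1 with E18 replicates 1 and 2 averaged and 1 to 9 when 1 array was left out.

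Of the other genes named, sign changed for Fos (0.26 after quantile normalization), Egr1 (-0.10 without adult replicate 2, in a range up to 0.32 when 1 array was left out, and 0.77 after quantile normalization) and Vgll2 (-0.031 with low values raised to the floor, and -0.26 to 1.13 when 1 array was left out), none of which had passed. The median difference over all genes was 0.17 as deposited, 0.05 under quantile normalization and 0.02 once median-centred. The share of calls that were higher at E18 was 76.4% as deposited and 70.8% after quantile normalization. Values of Tead4, and of Tead2 on the adult arrays, are limited by signals near the floor.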
